A study of Komagataella phaffii with 9 samples.

Results

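Phosphofructokinase catalyses the ATP-dependent phosphorylation of fructose-6-phosphate to fructose-1,6-bisphosphate, a step of glycolysis that is irreversible in the cell and is a known site of control over the flow of sugar carbon. In *Saccharomyces cerevisiae* the enzyme is a hetero-oligomer of alpha and beta subunits, encoded by *PFK1* and *PFK2*. There, ATP inhibits the enzyme, while AMP and fructose-2,6-bisphosphate activate it. The transcripts described here are *PFK1* (PP7435_Chr2-0897, alpha subunit) and *PFK2* (PP7435_Chr1-0820, beta subunit) of the methylotrophic yeast *Komagataella phaffii*. They were chosen by identifier, as 2 of the 5344 sequences quantified. Their reference sequences are 2970 and 2826 bases long, so that they are close in length as well. Any other subunit of the enzyme in this yeast was not examined.

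RNA-seq of poly(A)-enriched RNA was done on 3 shake flask cultures for each of 3 strains, sampled in exponential growth on 5 g L-1 glucose. The strains were Gal4-like overexpression (here *CRA1* OE, since the study named this Gal4-like transcription factor Cra1), Δgal4-like (here *Δcra1*) and the control. All derive from CBS 7435, carry egfp under the GAP promoter as a reporter, and were precultured with Zeocin. A single transformant represented each strain, so p-values measure only the spread between flasks of that transformant. The comparisons ask how the 2 subunit transcripts and their ratio stand when the factor is in excess or absent.

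Total estimated counts were 114609 to 213700 in *CRA1* OE, 193565 to 223824 in *Δcra1* and 106345 to 108537 in the control libraries, so that depth moved with strain, and its part in the results was not tested. For a sequence with 0 counts the upper limit (3 counts of the total) was 0.00134% to 0.00282% of a library, and such limits and all intervals given here cover counting error only. *CRA1* (PP7435_Chr1-1522) itself had 810, 95 and 316 counts in *CRA1* OE, 0 in every *Δcra1* library and 11 in each control library. The *CRA1* OE libraries thus differed among themselves, with replicate 2 the lowest in this gene and also in total counts.

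*PFK1* was higher in both engineered strains than in the control, and *PFK2* was higher with *CRA1* OE and lower in *Δcra1*. The mean *PFK1* level was 5.70-fold that of the control in *CRA1* OE and 14.2-fold in *Δcra1*. The mean *PFK2* level was 7.71-fold that of the control in *CRA1* OE and 0.423-fold in *Δcra1*. Levels are given in TPM, a share of each library's transcripts in which counts are divided by length. In RNA of whole cultures, fewer cells with a transcript and less of it per cell cannot be told apart.

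*PFK1* was at 131, 48.0 and 112 TPM in *CRA1* OE replicates 1, 2 and 3, at 259, 218 and 246 TPM in *Δcra1*, and at 18.9, 15.7 and 16.4 TPM in the control. The order was *Δcra1*, *CRA1* OE, control, and no library of a strain overlapped with one of another. Of all sequences tested, 12.1% lay without overlap above the control in *CRA1* OE and 21.9% in *Δcra1*. These shares were taken from counts scaled to the library total with TMM factors, not from TPM. *PFK1* did not overlap in that measure either. Means were 96.9 ± 43.4 TPM in *CRA1* OE, 240.9 ± 20.9 TPM in *Δcra1* and 17.0 ± 1.66 TPM in the control (SD, n = 3 each). The counts behind these levels were 157, 25 and 77 in *CRA1* OE, 276, 243 and 258 in *Δcra1*, and 11, 10 and 9 in the control. The control level of *PFK1* therefore rests on 30 counts over 3 libraries.

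*PFK2* was at 281, 62.8 and 158 TPM in *CRA1* OE replicates 1, 2 and 3, at 5.95, 8.53 and 13.1 TPM in *Δcra1*, and at 20.0, 18.3 and 26.9 TPM in the control. The order was *CRA1* OE, control, *Δcra1*, again with no overlap between strains. Of the sequences tested in *CRA1* OE, 12.1% lay without overlap above the control, as *PFK2* did, and 26.6% lay below it. In *Δcra1* 26% lay without overlap below the control, as *PFK2* did, and 21.9% lay above it. Between *CRA1* OE and *Δcra1* these shares were 14.8% for *CRA1* OE higher and 18.8% for *CRA1* OE lower. Means were 167.4 ± 109.6 TPM in *CRA1* OE, 9.19 ± 3.62 TPM in *Δcra1* and 21.7 ± 4.60 TPM in the control (SD, n = 3 each). The counts were 319, 31 and 103 in *CRA1* OE, 6, 9 and 13 in *Δcra1*, and 11, 11 and 14 in the control. At this depth the libraries taken singly leave room for overlap. *Δcra1* replicate 3 held *PFK2* at 0.00581% of its counts (95% exact Clopper-Pearson interval 0.00309% to 0.00993%), against 0.0101% (0.00506% to 0.0181%) in control replicate 1.

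**Figure D1:**
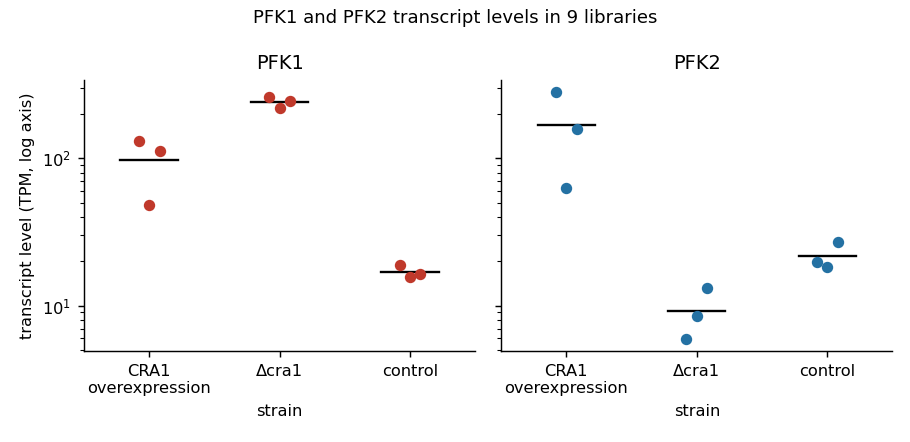
Transcript level in TPM (log axis) of *PFK1* (left) and *PFK2* (right) in each of the 9 libraries by strain, with points for libraries and black lines for strain means (n = 3). *PFK1* lies highest in *Δcra1* (218 to 259 TPM), while *PFK2* lies lowest there (5.95 to 13.1 TPM), and both are above the control in every *CRA1* OE library.

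The spread between flasks was widest in *CRA1* OE for both transcripts, and counting error is given beside it as the part that depth sets. Counting error was taken as the inverse square root of the strain's mean count. It is too small for a library of few counts, as in *CRA1* OE replicate 2 with 25 *PFK1* and 31 *PFK2* counts. The coefficient of variation of *PFK1* was 44.8% in *CRA1* OE, where counting error alone gives 10.8%, and that of *PFK2* was 65.5%, where counting alone gives 8.14%. Replicate 1 was highest and replicate 2 lowest for both subunits, as for *CRA1* itself and for total counts. In *Δcra1*, by contrast, *PFK1* varied by 8.69% (counting alone 6.21%) and *PFK2* by 39.4% (counting alone 32.7%). In the control both varied by less than counting alone gives, with 9.76% for *PFK1* (counting 31.6%) and 21.2% for *PFK2* (counting 28.9%).

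With *CRA1* OE, *PFK1* rose by a log2 fold change of 2.69 (standard error 0.51, adjusted p = 0.0155, quasi-likelihood test of edgeR, Benjamini-Hochberg adjusted). *PFK2* rose by 3.19 on the log2 scale (standard error 0.66, adjusted p = 0.0209, same test). Both subunits were thus called, where a call needs an adjusted p under 0.05 and at least a 2-fold change, against 7.96% of the 1986 sequences tested (7.15% higher and 0.806% lower). In this comparison *PFK2* had position 23 and *PFK1* position 47 from the top by fold change. Both calls needed all 3 control libraries. Without control replicate 1, 2 or 3 the adjusted p of *PFK1* in the edgeR test was 0.0521, 0.0779 and 0.0862, with fold changes of 2.62, 2.55 and 2.55 on the log2 scale, and that of *PFK2* was 0.0694, 0.107 and 0.0916, with fold changes of 2.97, 2.97 and 3.24.

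In *Δcra1* the subunits moved apart. *PFK1* rose by a log2 fold change of 3.63 (standard error 0.20, adjusted p = 7.9e-17, quasi-likelihood test of edgeR, Benjamini-Hochberg adjusted), and *PFK2* fell by 1.40 on the log2 scale (standard error 0.40, adjusted p = 0.0054, same test). In this comparison 21.6% of the 2392 sequences tested were called, 13.1% higher and 8.53% lower. With scaling by library totals only, the 313 higher and 204 lower calls became 389 and 150, and both subunits kept their calls. *PFK1* stood at position 15 from the top by fold change and position 13 by p. *PFK2* stood at position 97 from the bottom by fold change. The *PFK1* call held in every alternative run, with log2 fold changes between 3.51 and 3.82. The *PFK2* fall kept its sign in every alternative that tested it but lost its call in limma fits of log2 TPM and in 1 fit over all 9 libraries. With all 9 libraries in 1 fit, the log2 fold change was -1.43 with an adjusted p of 0.15 in the edgeR test.

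Set directly against *Δcra1*, *CRA1* OE had 18.2-fold the mean TPM of *PFK2* and 0.402-fold that of *PFK1*. The log2 fold change of *PFK2* was 4.35 (standard error 0.54, adjusted p = 6.8e-05) and that of *PFK1* -1.16 (standard error 0.33, adjusted p = 0.0277), both by edgeR's quasi-likelihood test, Benjamini-Hochberg adjusted. Here 15.5% of 3071 sequences were called, 9.8% higher in *CRA1* OE and 5.67% lower. With scaling by library totals only, the 301 higher and 174 lower calls became 240 and 235, and *PFK1* and *PFK2* kept their calls. The lower *PFK1* of *CRA1* OE is the less secure value. It was called with *CRA1* OE replicate 1 left out, while the call was lost with any other single library of the 6 left out, though the sign never changed. Without *CRA1* OE replicate 2 the log2 fold change was -0.86 and the adjusted p in the edgeR test 0.0151, so that the call was lost to the 2-fold limit alone. Without *CRA1* OE replicate 3 or *Δcra1* replicate 1, 2 or 3 the log2 fold changes were -1.24, -1.14, -1.21 and -1.25, with adjusted p between 0.0736 and 0.0936 in that test. The 3 comparisons share libraries in pairs, so they are not independent of each other.

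The ratio of the subunit transcripts was below 1 in *CRA1* OE and control, and far above 1 in *Δcra1*. *PFK1* TPM divided by *PFK2* TPM was 0.465, 0.764 and 0.707 in *CRA1* OE replicates 1, 2 and 3, then 43.5, 25.5 and 18.8 in *Δcra1*, and 0.946, 0.860 and 0.608 in the control. By TPM the beta subunit transcript was the more abundant in each of the 6 *CRA1* OE and control libraries, and the alpha subunit transcript in each of the 3 *Δcra1* libraries. In the control this order lies within counting error, at 11, 10 and 9 *PFK1* counts against 11, 11 and 14 for *PFK2*. The same holds for *CRA1* OE replicate 2, at 25 against 31. In *CRA1* OE replicate 3, at 77 against 103, the 95% exact interval of the *PFK1* share of the counts, 35.4% to 50.4%, still reached 50%. Means were 0.645 ± 0.158 in *CRA1* OE, 29.3 ± 12.8 in *Δcra1* and 0.805 ± 0.175 in the control (SD, n = 3 each).

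On the log2 scale the ratio in *Δcra1* exceeded that in the control by 5.10, without overlap (exact permutation test, two-sided p = 0.1). The difference of *CRA1* OE minus *Δcra1* was -5.43 (exact permutation test, two-sided p = 0.1). The difference of *CRA1* OE minus control was -0.33, and the libraries overlapped (exact permutation test, two-sided p = 0.4). With 3 libraries against 3 no such test can go below 0.1, and over the 12 tests of this kind the adjusted p of these smallest values was 0.2. The ratio is taken within a library and does not depend on the scaling between libraries.

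The counts show the same order, with their counting error. *PFK1* made up 33.0%, 44.6% and 42.8% of the counts of both subunits in *CRA1* OE replicates 1, 2 and 3, with 95% exact Clopper-Pearson intervals of 28.8% to 37.4%, 31.3% to 58.5% and 35.4% to 50.4%. In *Δcra1* it made up 97.9%, 96.4% and 95.2%, and the interval bounds ran from 91.9% to 99.2%. In the control it made up 50%, 47.6% and 39.1%, with interval bounds from 19.7% to 71.8%. The intervals of *Δcra1* lay above those of all 6 other libraries, whereas those of *CRA1* OE and control overlapped.

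**Figure D2:**
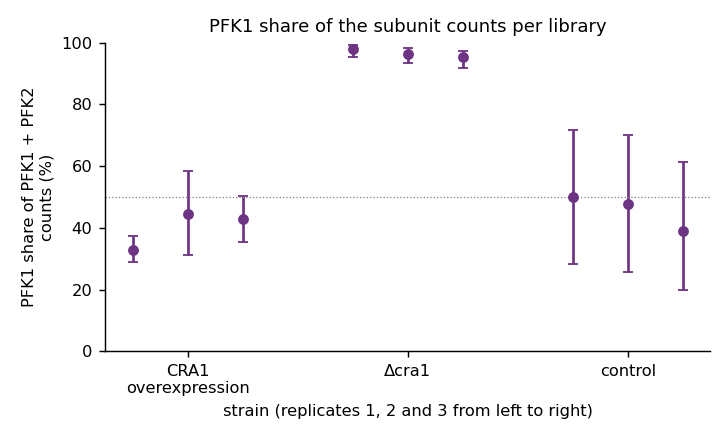
Share of *PFK1* in the summed counts of *PFK1* and *PFK2* (%), for replicates 1, 2 and 3 of each strain, with 95% exact binomial intervals and a dotted line at 50%. The 3 *Δcra1* libraries sit between 95.2% and 97.9%, and the other 6 between 33.0% and 50%.

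The summed level of both transcripts did not separate *CRA1* OE from *Δcra1*. Together they reached 412, 111 and 270 TPM in *CRA1* OE, 265, 226 and 259 TPM in *Δcra1*, and 38.8, 34.0 and 43.3 TPM in the control. The 3 *Δcra1* libraries fell inside the range of the *CRA1* OE libraries, and all 6 lay above the control. On the log2 scale the sum differed by 2.58 between *CRA1* OE and control and by 2.69 between *Δcra1* and control (exact permutation tests, two-sided p = 0.1 each). The difference of *CRA1* OE minus *Δcra1* was -0.11 (exact permutation test, two-sided p = 1), which turned to 0.42 without *CRA1* OE replicate 2. In *CRA1* OE the sum was carried by both subunits, and in *Δcra1* almost wholly by *PFK1*.

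Among the enzymes before and after phosphofructokinase, the study's list of glycolytic and fermentative genes holds 9 others. These are *HXK1* (hexokinase), *PGI1* (glucose-6-phosphate isomerase), *FBA1-1* (aldolase), *TDH3* (glyceraldehyde-3-phosphate dehydrogenase), *GPM1* (phosphoglycerate mutase), *ENO1* (enolase), *CDC19* (pyruvate kinase), *PDC1* (pyruvate decarboxylase) and *ADH2* (alcohol dehydrogenase). The study selected them on these libraries, so their direction is not independent evidence.

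With *CRA1* OE all 9 of the others were called higher than in the control, with log2 fold changes of 2.14 to 3.62 and a median of 2.76, beside a median of 0.02 over all sequences tested. *PFK1* (2.69) and *PFK2* (3.19) lay within that range. Of all 1986 sequences tested, 7.15% were called higher. The count of 9 fell to 4, 0 and 1 without control replicate 1, 2 and 3.

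In *Δcra1* 5 of the 9 were called lower, 1 was called higher and 3 were not called, with a median log2 fold change of -1.64 beside 0.01 over all sequences tested. Of all 2392 sequences tested, 8.53% were called lower and 13.1% higher. The 5 were *FBA1-1* (-1.64), *TDH3* (-2.54), *GPM1* (-3.37), *ENO1* (-3.00) and *ADH2* (-3.06), beside *PFK2* at -1.40. All 5 act after phosphofructokinase, but so do *CDC19* and *PDC1*, which were not called. Only *HXK1* and *PGI1* of the 9 act before it, so the list cannot show a split at this step. The gene called higher was *HXK1*, which acts upstream of *PFK1*, at 1.11 (standard error 0.36). Its call was lost in 8 of 16 alternatives, among them both DESeq2 fits (1.04 on the log2 scale each, adjusted p 0.099 and 0.11) and the fits without *Δcra1* replicate 2 (0.85) or without control replicate 1 (1.01), 2 (1.03) or 3 (1.11). *PGI1* had -0.59, *CDC19* -0.66 and *PDC1* -0.91, short of the 2-fold limit, and *PGI1* missed the p limit as well (adjusted p = 0.124 in the edgeR test). The *PFK1* value of 3.63 lay outside the range of the 9 others, -3.37 to 1.11.

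Between *CRA1* OE and *Δcra1* directly, the 9 others were all called higher in *CRA1* OE, by log2 fold changes of 1.42 for *HXK1* to 6.74 for *GPM1* (median 4.58, beside 0.08 over all sequences tested). *PFK2* (4.35) lay within this range. Of all 3071 sequences tested, 9.8% were called higher in *CRA1* OE. *PFK1* (-1.16) was the single gene of the 11 that was lower in *CRA1* OE than in *Δcra1*.

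**Figure D3:**
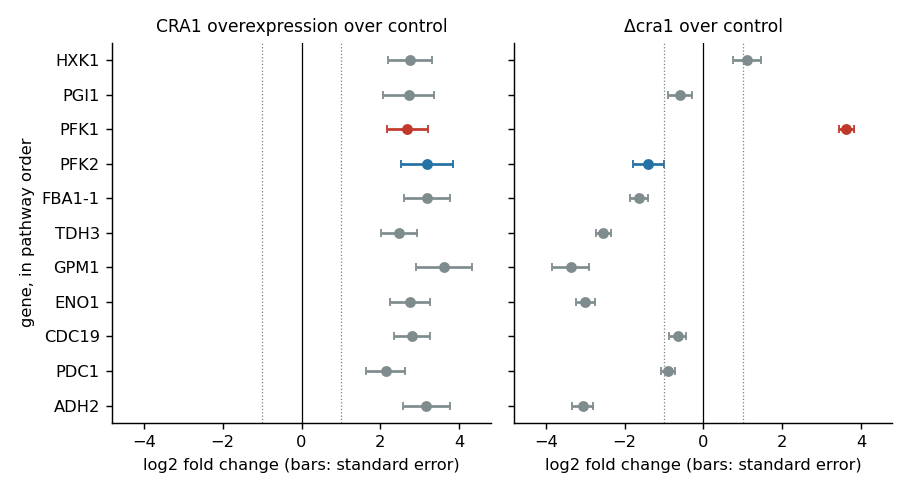
Log2 fold change with standard error (edgeR, n = 3 against 3) of the 11 genes in pathway order from top to bottom, for *CRA1* OE over control (left) and *Δcra1* over control (right); dotted lines mark a 2-fold change. With *CRA1* OE every point lies between 2.14 and 3.62. In *Δcra1* *PFK1* stands at 3.63, while *PFK2* (-1.40) is lower than in the control, as are all the others except *HXK1*.

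Measured against the rest of the pathway, *PFK2* overlapped between all 3 strains, whereas *PFK1* in *Δcra1* stood apart from the other strains. *PFK2* stood at 1.21%, 0.956% and 1.22% of the summed TPM of the 9 others in *CRA1* OE, at 0.826%, 1.37% and 1.59% in *Δcra1*, and at 0.777%, 1.05% and 1.13% in the control. Every pair of strains overlapped in this measure. The log2 difference against the control was 0.20 for *CRA1* OE (exact permutation test, two-sided p = 0.5) and 0.32 for *Δcra1* (exact permutation test, two-sided p = 0.4). A design of this size cannot show that the shares were equal.

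*PFK1* stood at 0.563%, 0.730% and 0.861% of the same sum in *CRA1* OE, at 35.9%, 35.0% and 29.9% in *Δcra1*, and at 0.735%, 0.907% and 0.690% in the control. The log2 difference was -0.13 for *CRA1* OE minus control, with overlap (exact permutation test, two-sided p = 0.6). It was 5.44 for *Δcra1* minus control (exact permutation test, two-sided p = 0.1). The sum itself was 23275, 6574 and 12982 TPM in *CRA1* OE, 720, 622 and 824 TPM in *Δcra1*, and 2568, 1733 and 2377 TPM in the control, so the *PFK1* share in *Δcra1* holds both a higher *PFK1* and a lower sum. By TPM *PFK1* ranked last of the 11 genes in every *CRA1* OE and control library and first in every *Δcra1* library. *PFK2* ranked ninth to eleventh of the 11 in all 9 libraries.

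Within the whole transcript set, *PFK1* ranked 1323, 2250 and 1558 by TPM among the 5344 sequences in *CRA1* OE, 839, 869 and 907 in *Δcra1*, and 3010, 2983 and 3097 in the control. *PFK2* ranked 627, 1987 and 1220 in *CRA1* OE, 4570, 4388 and 4229 in *Δcra1*, and 2948, 2839 and 2647 in the control. The 2 subunits were thus both near the middle of the ranking in the control, and far apart in *Δcra1*. The control ranks rest on 9 to 14 counts per library and subunit.

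To find transcripts of like pattern, the log2 CPM (counts scaled to the library total, with TMM factors) of each sequence was centred on its own mean, and the root mean square difference from each subunit was taken over the 9 libraries for 1711 other sequences. The libraries of a strain come from a single transformant grown under like conditions, so likeness is a description. *PFK2* was closest to *FBA1-1*, at 0.369, the aldolase that cleaves the product of phosphofructokinase. Next came *THI20* (PP7435_Chr3-0342), at 0.406, *SNZ3* (PP7435_Chr1-1179), at 0.423, and *THI4* (PP7435_Chr3-0552), at 0.425. *THI20* and *THI4* encode enzymes of thiamine biosynthesis, and *SNZ3* belongs to a family known in *S. cerevisiae* for vitamin B6 and thiamine synthesis. Last of the 5 was *TPI1* (PP7435_Chr3-0220), triose phosphate isomerase, at 0.437, with mean levels of 634 TPM in *CRA1* OE, 44.8 TPM in *Δcra1* and 78.4 TPM in the control. Of the other pathway genes, *CDC19* was the nearest at position 7 and *HXK1* the farthest at position 94, while *PFK1* stood at position 1672.

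*PFK1* was closest to PP7435_Chr2-0578, a sequence described as having low similarity to acyl-coenzyme A thioesterase, at a root mean square difference of 0.450. It averaged 303 TPM in *CRA1* OE, 460 TPM in *Δcra1* and 25.7 TPM in the control. The next were *GEA2* (PP7435_Chr1-1227), an exchange factor for ARF GTPases in vesicle transport, at 0.524, and *MEP1* (PP7435_Chr2-0410), an ammonium permease, at 0.610. Then came *ACS1* (PP7435_Chr2-0505), an acetyl-CoA synthetase, at 0.622, and *FLO400* (PP7435_Chr4-0865), a putative lectin-like protein, at 0.623. *ACS1* averaged 30.6 TPM in *CRA1* OE, 164 TPM in *Δcra1* and 8.96 TPM in the control. None of the 5 belongs to the list of 11, and the nearest of those was *HXK1*, at position 167, while *PFK2* stood at position 1652. Counts of these 5 in the control libraries were 8 or fewer, so their likeness to *PFK1* was measured at low depth. The filter on mean counts over the 9 libraries also shaped both groups. *GEA2*, *ACS1* and *FLO400* passed it through *Δcra1*, where *PFK1* was high. *THI20* and *TPI1* passed it through *CRA1* OE, where *PFK2* was high. The likeness of these sequences is thus in part set by the filter.

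**Figure D4:**
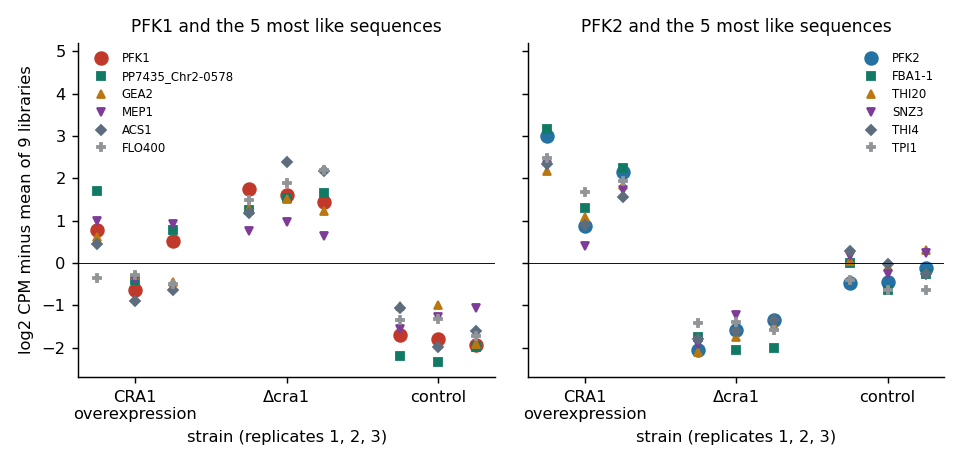
Log2 CPM minus the mean of the 9 libraries, for *PFK1* (left, large circles) and *PFK2* (right, large circles) and the 5 sequences with the smallest root mean square difference from each, with replicates 1, 2 and 3 of each strain side by side. By strain mean the left group is highest in *Δcra1* and lowest in the control, and the right group is highest in *CRA1* OE and lowest in *Δcra1*; single libraries can depart from this, as PP7435_Chr2-0578 and *MEP1* do in *CRA1* OE replicate 1.

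Sequences whose identifiers are numbered near those of the subunits were compared in the same fits, and many had too few counts to be tested. Of the 20 identifiers within 10 numbers of *PFK1*, 8 could be tested in *Δcra1* against the control, and their log2 fold changes ran from -1.08 to 0.12, with a median of -0.51. None of them was called higher, and *PPZ1* (PP7435_Chr2-0893), a protein phosphatase, was called lower at -1.08 (adjusted p = 0.0049, quasi-likelihood test of edgeR, Benjamini-Hochberg adjusted). That is 1 of 8 called lower, beside 8.53% of all sequences tested, of which 13.1% were called higher. In *CRA1* OE 7 could be tested, with a median of -0.17, and 1 was called higher, beside 7.15% of all sequences tested. This was *BRF1* (PP7435_Chr2-0904), a subunit of the RNA polymerase III factor TFIIIB, with 433, 302 and 370 counts in *CRA1* OE against 3, 5 and 2 in the control and a log2 fold change of 6.43. *BRF1* had 1, 1 and 2 counts in *Δcra1*, too few to be tested there against the control.

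Of the 18 identifiers found within 10 numbers of *PFK2*, 11 could be tested in each comparison with the control. Their median log2 fold change was 0.15 in *CRA1* OE and -0.30 in *Δcra1*, and none was called higher in either. *OTU2* (PP7435_Chr1-0827) was called lower in *CRA1* OE at -1.30 (adjusted p = 0.021), and PP7435_Chr1-0811 was called lower in *Δcra1* at -1.11 (adjusted p = 0.0154), both by edgeR's quasi-likelihood test, Benjamini-Hochberg adjusted. Each was 1 of 11, beside 0.806% of all sequences tested called lower in *CRA1* OE and 8.53% in *Δcra1*. The shares called higher were 7.15% and 13.1%. The sequences numbered directly beside *PFK1* had too few counts to be tested. PP7435_Chr2-0896 had 12, 0 and 4 counts in *CRA1* OE, 9, 7 and 7 in *Δcra1*, and 1, 1 and 0 in the control. PP7435_Chr2-0898 had 22, 1 and 13 in *CRA1* OE, 3, 11 and 11 in *Δcra1*, and 1, 1 and 2 in the control. Whether either overlaps *PFK1* on the chromosome was not tested, since positions in the CBS 7435 assembly were not used here.

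**Figure D5:**
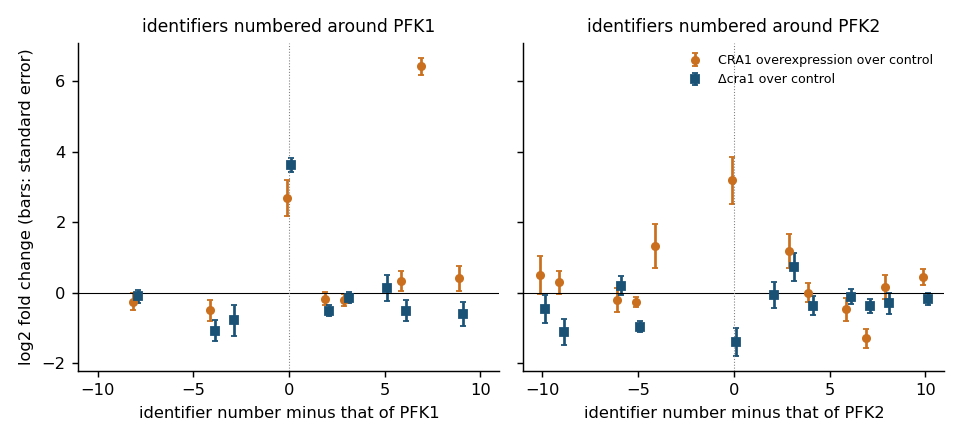
Log2 fold change with standard error (edgeR, n = 3 against 3) of tested sequences by the difference of their identifier number from that of *PFK1* (left) or *PFK2* (right), with circles for *CRA1* OE over control and squares for *Δcra1* over control. The subunits stand at 0 on the horizontal axis, with *PFK1* at 2.69 and 3.63 and *PFK2* at 3.19 and -1.40, and *BRF1* at 6.43 is the 1 neighbour called higher.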

How the data were processed

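The authors trimmed paired reads (Trim Galore 0.4.2, per the submitters' processing notes) and quantified them with kallisto (0.44.0 in the same notes) on the CBS7435 annotation. The strand setting is not given in the sources used here. The authors deposited kallisto's estimated counts and TPM per library, both unscaled between libraries, with the reference and effective lengths as other columns. For each pair of strains they also deposited normalized counts, a signal used here only as a check. Estimated counts were rounded. They were whole for both subunits, and 0.543% to 0.842% of the counts per library were not (tolerance 0.001).

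Each pair of strains was fitted over its 6 libraries with edgeR 4.0.16 (R 4.3.3; filterByExpr, TMM factors, quasi-likelihood test, Benjamini-Hochberg adjustment) and called at adjusted p under 0.05 and at least 2-fold change. Standard errors given for edgeR are the absolute log2 fold change divided by the square root of the F statistic of that test. The edgeR test stood in for the DESeq2 of the study, and DESeq2 1.42.0 was an alternative. Ratios were log2((TPM + 0.1)/(TPM + 0.1)), compared by exact two-sided permutation tests (SciPy 1.17.1). Likeness used TMM-scaled log2 CPM (prior count 2) of sequences with a mean of at least 20 counts. Before use on the deposited counts, the test scripts were checked on simulated counts. As alternatives, scaling was done by RLE, by totals alone or by TMM with the 11 pathway genes removed, and the filter on low counts was dropped or set to a mean of 50. DESeq2 (with and without length offsets), limma on log2 TPM, a joint fit of 9 libraries, a replicate block, other cutoffs and pseudocounts, and the omission of each library were also tried.

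Named were the subunits, the study's 9 other glycolytic and fermentative genes, *CRA1*, the 5 nearest patterns per subunit, and called neighbours within 10 identifier numbers. Members and lists were chosen with earlier results of these data known. PP7435_Chr2-0896, PP7435_Chr2-0898 and the ratios to the 9 other genes were chosen after their values were seen. Gene names came from the study's supplementary gene table, which names 521 of the 5344 identifiers. A reference table for strain GS115 (ASM2700v1) matched 0 identifiers and was not used.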

Additional observations from a re-analysis of the deposited data

Results flagged for a closer look

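A sequence named Kanamycin in the count tables, used in none of the comparisons above, had 19, 10 and 16 counts in *CRA1* OE replicates 1, 2 and 3, against 0 counts in every control library. It had 1751, 1526 and 1679 counts in the *Δcra1* libraries. As a share of the library, the *CRA1* OE libraries held this sequence at 1.12%, 1.10% and 1.45% of the mean *Δcra1* share. Its source, and any part of it in the *PFK1* values, was not tested. Groups of 3 libraries are too small for a check for outlying samples, so none was made.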

How the results depend on the processing

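Of 100 values of the *PFK1* and *PFK2* fold changes under alternatives, 79 kept their call, 21 lost it and 0 changed sign. The fold changes of *PFK1* in *Δcra1* over control and of *PFK2* in *CRA1* OE over *Δcra1* kept their call in all that were run. With limma on log2(TPM + 1) and log2(TPM + 0.1), the log2 fold changes over control in *CRA1* OE were 2.33 and 2.38 for *PFK1* (limma adjusted p 0.10 and 0.11) and 2.66 and 2.71 for *PFK2* (0.10 and 0.12). In the same limma fits, *PFK2* in *Δcra1* over control had -1.20 and -1.28 (0.18 and 0.20), and *PFK1* in *CRA1* OE over *Δcra1* had -1.42 and -1.43 (0.12 and 0.13), so these 8 values lost their call. *PFK2* in *Δcra1* over control had -1.43 in 1 fit over all 9 libraries. With a mean of at least 50 counts, *PFK1* in *CRA1* OE over *Δcra1* had -0.86, while *PFK1* in *CRA1* OE and *PFK2* in *Δcra1* could not be tested against the control. The causes were not tested.

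With single libraries left out, the log2 fold changes over control in *CRA1* OE ran from 2.16 to 2.99 for *PFK1* and 2.29 to 3.55 for *PFK2*, and *PFK1* in *CRA1* OE over *Δcra1* ran from -1.51 to -0.86. The log2 sum of both subunits in *CRA1* OE minus *Δcra1* ran from -0.53 to 0.42. Relative to the 9 other genes, *PFK1* in *CRA1* OE minus control ran from -0.27 to 0.04 (0.038 without *CRA1* OE replicate 1), and *PFK2* in *CRA1* OE minus *Δcra1* ran from -0.40 to 0.07 (0.074 without *Δcra1* replicate 3). That *PFK2* measure was 0.11 from estimated counts plus 0.5. The measures relative to the 9 other genes were chosen after values were seen.

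The 158 sequences called in *CRA1* OE over control became 414 without a filter, 52 with a mean of at least 50 counts, 363 in 1 fit over 9 libraries, 52 and 41 with limma, and 58 at adjusted p under 0.01, and 44 (without control replicate 2) to 574 (without *CRA1* OE replicate 2) with a library left out. The 517 called in *Δcra1* over control became 114 with a mean of at least 50 counts and 936 without a fold limit, and 415 to 558 with a library left out. The 475 called between *CRA1* OE and *Δcra1* became 147 with a mean of at least 50 counts, 212 and 200 with limma and 273 at adjusted p under 0.01, and 282 to 775 with a library left out. Of the 9 other genes, the number called in *CRA1* OE over control was 2 and 1 with limma, and 0 to 9 with a library left out. In *Δcra1* it was 1 of the 2 tested with a mean of at least 50 counts, against 6.

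From the deposited normalized counts, the log2 ratios of means over control were 2.31 in *CRA1* OE and 3.55 in *Δcra1* for *PFK1*, and 2.77 and -1.54 for *PFK2*. Deviations of same-numbered libraries from their strain means, over 1712 sequences, correlated at 0.247, 0.209 and 0.047 between *CRA1* OE and control. In the other pairs of strains they correlated between -0.491 and -0.039. Deviations from a mean of 3 libraries are tied to each other, so these values cannot decide whether the numbers pair the libraries. Between *CRA1* OE and control every library correlated best with its own number, a hint from the data and not from the design. With the replicate number as a block, 307, 503 and 373 sequences were called in the 3 comparisons, and *PFK1* and *PFK2* kept every call, with log2 fold changes of 2.57 and 2.96 in *CRA1* OE over control. The fall of *PFK2* rests on 28 counts in *Δcra1* and 36 in the control, and the control level of *PFK1* on 30. Scaling by library totals only moved the median log2 fold change of all sequences by 0.14 in *Δcra1* over control and by -0.12 in *CRA1* OE over *Δcra1*.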
